A study of Capra hircus with 3 samples.

Results

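The protein-coding genes of the lactating goat mammary gland were compared between the library labelled peak lactation and the library labelled early lactation. A row of the deposited expression table was taken as a protein-coding gene when its identifier ended in 1 NCBI gene ID of that class, and rows of the same gene were summed. This gave 13023 genes from 13424 loci of the 50041 in the table, and 8678 of these genes reached 5 FPKM (read fragments mapped to a transcript, divided by its length and by the size of the library) or more in at least 1 of both libraries and are described here. Of these, 7346 reached it in both libraries, 500 only in the early and 832 only in the peak-labelled library. DTYMK lay just inside this limit, with 5.0004 FPKM as its higher value, and PPP1R3C just outside it, with 4.997 FPKM.

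Tissue came from healthy Laoshan dairy goats, 4 years old and in the third lactation, biopsied under anaesthesia at 10 (early), 90 (peak) and 210 (late) days after parturition. The RNA of 5 goats was mixed in equal parts at each stage, without any treatment or genetic change, so that every stage is 1 pooled library. The methods name 5 goats for all 3 stages, so the pools appear to share their animals. No spread between animals or replicates can be given, and a difference below is a difference between 2 libraries and was not tested. The values hold no read numbers, so the depth behind each is unknown. Of the values above 0, 47.996% in the early, 52.7% in the peak-labelled and 48.2% in the late-labelled library end in the digit 5, as means of 2 rounded numbers often do, so a deposited value may be a mean of 2 estimates that are not analysed here. In pooled tissue, fewer cells of a type and less RNA per cell cannot be told apart.

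The stage label of the library called peak is in doubt. In the per-library values that accompany the published work, the genes of the library here labelled peak follow the late-lactation library, and those of the library here labelled late follow the peak. The label was kept as deposited, the values of the library labelled late are given beside the main ones, and no value below should be read as a property of the peak of lactation without this reservation.

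All 3 libraries were mammary by their defining genes. PAEP, LALBA, CSN1S1 and CSN3 were the 4 most abundant protein-coding genes over the early and peak-labelled libraries, although the table lists LALBA at 0 for the late-labelled library. Epithelial KRT19 was at 439 FPKM in the early, 413 in the peak-labelled and 364 in the late-labelled library, an order kept for every set of 3 values below. Of 22 skin genes listed only 3 were measured, and none of these reached 5 FPKM. Of 25 skeletal muscle genes listed 6 were measured, and only the intermediate filament gene DES (5.50, 17.8 and 10.3 FPKM) and the thin-filament gene NEB (6.76, 3.04 and 5.14 FPKM) did. With so few genes matched, the part of skin or muscle was not tested.

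In lactation, the alveolar epithelium makes caseins and whey proteins in the endoplasmic reticulum, forms lactose in the Golgi apparatus and releases triglycerides as droplets wrapped in plasma membrane. Prolactin, acting through its receptor and STAT5, maintains this programme, while hormones of the growth axis and local growth factors influence how many secretory cells persist. Between the alveoli lie myoepithelial cells, fibroblasts, vessels and fat cells, together with lymphocytes and plasma cells whose antibodies are carried into the milk.

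Most genes were close in both libraries, and 72.3% differed by less than 1.5-fold. Ratios were taken as log2 of (FPKM + 1) in the peak-labelled over the early library, with a median of -0.09 and quartiles of -0.41 and 0.23. By this ratio, 404 genes were at least 2-fold higher in the peak-labelled library, 4.66% of the 8678 genes, and 514 were at least 2-fold lower, 5.92%. Among the genes above 5 FPKM in both libraries, 164 (2.23%) were higher and 364 (4.96%) were lower, since 240 of the 404 higher genes lay below 5 FPKM in the early library and entered only through the peak-labelled library. The 404 higher genes had median levels of 4.001, 12.2 and 2.78 FPKM in the 3 libraries, and the 514 lower genes 26.4, 9.48 and 26.9 FPKM. Of the 514, 150 lay below 5 FPKM in the peak-labelled library. In every list below, a called gene under 5 FPKM in 1 of these 2 libraries entered only through the other. A count of calls in a list has to be read beside 4.66% higher and 5.92% lower among all genes.

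**Figure D1:**
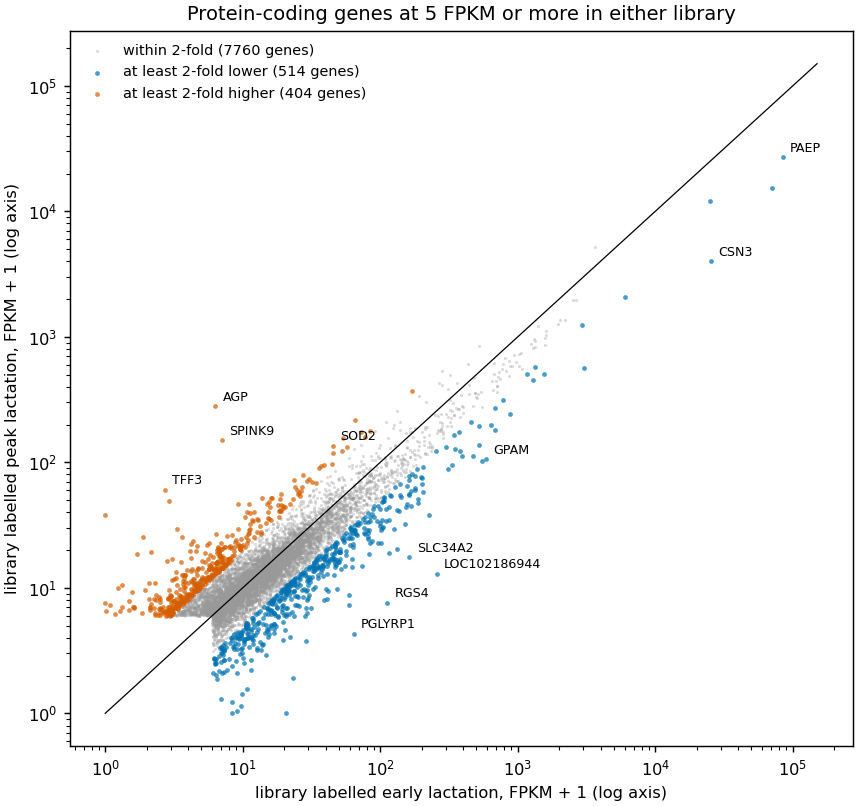
Each point is 1 of the 8678 protein-coding genes, with FPKM + 1 in the library labelled early lactation on the horizontal and in the library labelled peak lactation on the vertical log axis, and the line marks equality. The 514 lower genes (blue) reach the top of the abundance range, while the 404 higher genes (orange) lie mostly at low abundance.

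The balance of these calls depended on how the libraries were scaled. Protein-coding genes summed to 478221 FPKM in the early, 275836 in the peak-labelled and 421182 in the late-labelled library, which was 47.2%, 30.03% and 45.4% of all loci. Loci without a gene ID made 47.1%, 65.9% and 47.7%, and their part in the ratios was not tested. The 4 milk protein genes alone made 43.0% of the protein-coding sum in the early and 21.1% in the peak-labelled library. When both libraries were scaled to the same sum without the 20 most abundant genes, which multiplies the peak-labelled values by 1.22, the median ratio was 0.17, with 742 genes higher and 302 lower. Higher genes were then 71.1% of the calls, against 44.0% as deposited and 54.4% with the ratios centred on their median. Gene lists are therefore set beside the median of all genes, -0.09, and the rescaled median is given where it has the other sign. Abundant genes had a lower median than this, and no list was compared with genes of its own abundance.

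The ratio was lower for more abundant genes. Genes with a mean below 10 FPKM had a median log2 ratio of 0.06, and 6.63% of the 3683 were at least 2-fold higher. Among 179 genes from 100 to 300 FPKM the median was -0.55, and 18.4% were at least 2-fold lower. Among the 24 genes at 1000 FPKM or more the median was -0.67, with 8 of the 24 at least 2-fold lower and 0 higher. Lists of abundant genes have to be read with this in mind. The span of the locus showed a weaker relation, with medians of -0.16 in the shortest and 0.02 in the longest quartile of genes.

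**Figure D2:**
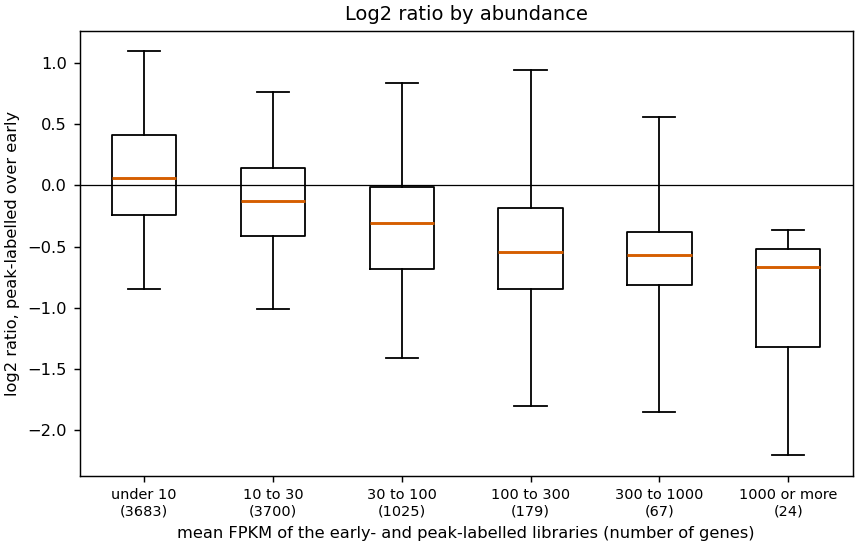
Boxes show the quartiles and median (orange) of the log2 ratio of FPKM + 1, peak-labelled over early library, in bins of mean FPKM, with whiskers from the 5th to the 95th percentile and the number of genes in parentheses. The median was 0.06 in the lowest bin and -0.67 in the highest.

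The milk protein genes were the most abundant and all 4 measured were at least 2-fold lower in the peak-labelled library, with a list median of -1.93. PAEP, the gene of the whey protein beta-lactoglobulin, was at 84874 FPKM in the early, 26999 in the peak-labelled and 83113 in the late-labelled library, a 3.14-fold lower level in the peak-labelled library. Its locus (NW_005100784.1:3508225-3884149) spans 375925 nt and is also listed for 4 other entries, so that its reads may not be its own alone. LALBA (NW_005100666.1:20596229-20598246), which encodes alpha-lactalbumin, the whey protein that makes galactosyltransferase form lactose, was at 70053 and 15214 FPKM in the early and peak-labelled libraries (log2 ratio -2.20). Its 0 in the late-labelled library may be a failed estimate, which was not tested, and was not read as absence.

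Both caseins measured lay on the same scaffold. CSN3 (NW_005100697.1:511320-524967), the kappa-casein that stabilises the casein micelle, was at 25446, 3989 and 27391 FPKM, 6.38-fold lower in the peak-labelled than in the early library. CSN1S1 (NW_005100697.1:295416-307108), alpha-S1-casein, was at 25057, 12017 and 39445 FPKM, 2.08-fold lower. The 2 caseins, nearly equal in the early library, were apart in the peak-labelled library. CSN1S1 was the exception under rescaling, where 3 of the 4 genes stayed past 2-fold. CSN2 and CSN1S2 were not analysed here. GLYCAM1, a mucin-like milk glycoprotein, was at 6037, 2085 and 7237 FPKM.

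Genes of the milk fat globule followed. Of 13 measured, 12 reached 5 FPKM and 9 of these were at least 2-fold lower, 0 were higher, and the list median was -1.48. FABP3, a fatty acid carrier of the cytosol, was at 3051, 563 and 3583 FPKM (log2 ratio -2.44). BTN1A1, the butyrophilin of the globule membrane, was at 2940, 1241 and 3788 FPKM, and its membrane partner XDH, xanthine oxidoreductase, at 1558, 509 and 2148 FPKM. PLIN2, which coats the droplets inside the cell, was at 1298, 452 and 1268 FPKM. RAB18, a small GTPase of lipid droplets, was at 469, 112 and 562 FPKM, and the fatty acid receptor CD36 at 685, 179 and 782 FPKM. In each of these genes the peak-labelled library was the lowest of the 3.

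Of 15 genes of fatty acid uptake and triglyceride assembly at 5 FPKM or more, 7 were at least 2-fold lower and 0 higher, with a median of -0.72. GPAM, which attaches the first acyl chain to glycerol phosphate, was at 591, 105 and 674 FPKM (-2.49), the largest difference of the list. LPIN1, a phosphatidate phosphatase, was at 95.1, 21.8 and 101 FPKM (-2.08), and the fatty acid carrier FABP5 at 155, 45.4 and 160 FPKM (-1.75). LPL, which frees fatty acids from blood lipoproteins, was at 683, 269 and 1145 FPKM (-1.34).

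Genes of de novo fatty acid synthesis differed less evenly. Of 14 genes, 4 were at least 2-fold lower and 0 higher, with a median of -0.63. FASN, the fatty acid synthase, was at 1175, 508 and 2036 FPKM (-1.21), and ACACA, which supplies its malonyl-CoA, at 106, 51.1 and 196 FPKM (-1.04). The acetate-activating ACSS1 (-1.41) and IDH1, a cytosolic source of NADPH (-1.42), were also past 2-fold, while the desaturase SCD, at 1056, 736 and 1746 FPKM, was not (-0.52). Cholesterol synthesis genes lay close together, with 17 of 18 below 0, a median of -0.63 and 1 past 2-fold. The abundant MSMO1 (68.2, 41.2 and 123 FPKM) of this pathway stayed within 2-fold.

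The 7 lipogenic regulator genes held no call in either direction, with a median of -0.03 that became 0.22 after rescaling. INSIG1, which retains the sterol-sensing complex in the endoplasmic reticulum, was at 107, 105 and 256 FPKM, and the nuclear receptor NR1H2 at 14.9, 12.5 and 14.7 FPKM. The 7 regulators ranged from -0.91 to 0.48, within the range of the de novo synthesis genes, -1.42 to 0.59. Whether the lists differ at like abundance was not tested.

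Of 12 genes of lactose synthesis and glucose supply at 5 FPKM or more, 6 were at least 2-fold lower and 0 higher, with a median of -0.86, or -0.37 over the 15 measured. B4GALT1, the galactosyltransferase that works with alpha-lactalbumin, was at 381, 121 and 447 FPKM (-1.65). UGP2, which makes UDP-glucose, was at 205, 57.2 and 212 FPKM (-1.82), and the glucose carrier SLC2A1 at 32.2, 14.9 and 35.4 FPKM (-1.06).

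Mineral transport into milk held the largest difference among the secretory lists. Of 13 genes, 7 were at least 2-fold lower and 0 higher, with a median of -1.06. SLC34A2, a sodium-phosphate cotransporter, was at 162, 16.6 and 96.5 FPKM, 9.26-fold lower in the peak-labelled than in the early library. The zinc exporter SLC30A2 was at 41.0, 8.50 and 26.9 FPKM (-2.14), and the zinc importer SLC39A8 at 200, 74.2 and 270 FPKM (-1.42). ATP2C2, a Golgi calcium pump whose locus is shared with another entry, was at 187, 46.6 and 213 FPKM (-1.98). SLC34A2 and SLC30A2 also stood lower in the late-labelled than in the early library, unlike the other two.

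**Figure D3:**
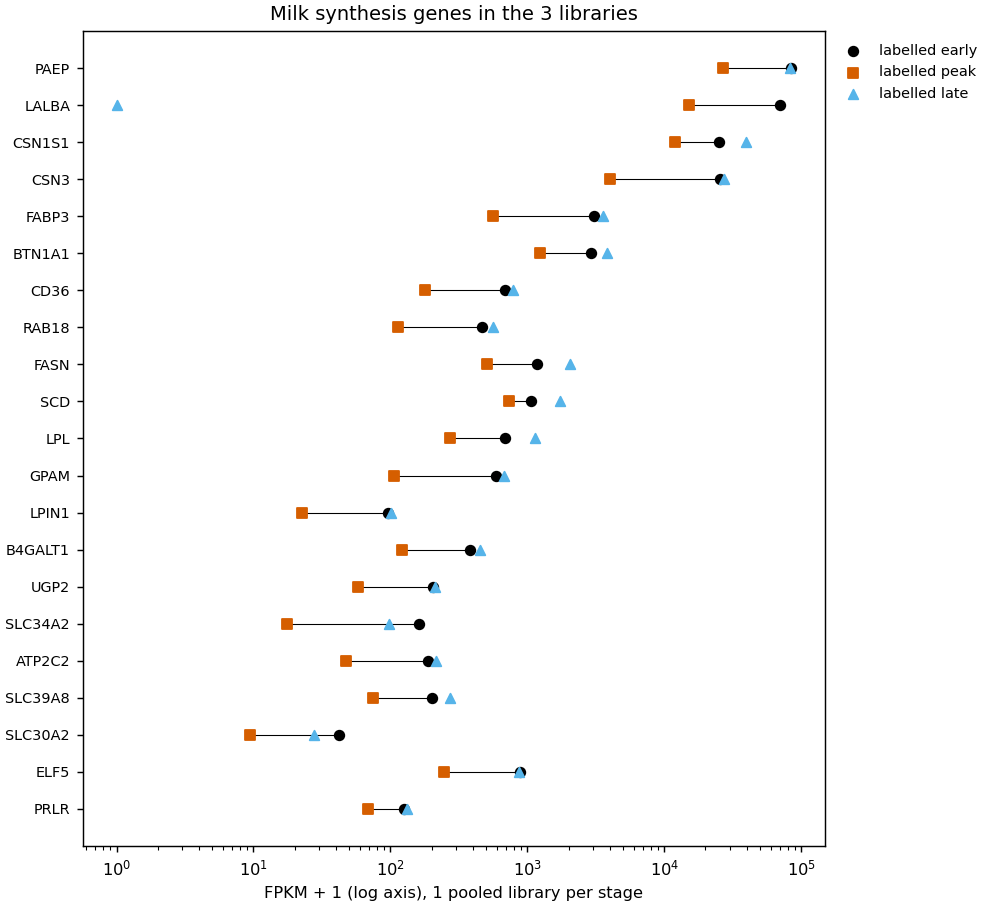
FPKM + 1 (log axis) of 21 milk synthesis genes in the pooled libraries labelled early (circle), peak (square) and late (triangle), with a line from early to peak. All 21 squares lie to the left of the circles, and LALBA's triangle at 1 stands for a listed 0.

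Amino acid transporters differed among themselves. Of 14 genes, 2 were at least 2-fold lower and 1 higher, with a median of -0.36. The glutamate carrier SLC1A1, with a locus shared with another entry, was at 99.1, 41.6 and 147 FPKM (-1.23). The glutamine carrier SLC38A3 was at 19.7, 5.01 and 20.2 FPKM (-1.78). SLC38A1 and SLC38A2, of the same family, did not share this, with 3.91, 10.3 and 2.76 FPKM (1.20) and 71.7, 68.6 and 85.3 FPKM (-0.06).

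Genes of protein entry into the endoplasmic reticulum and of vesicle coats were lower together but by little. Of 50 genes, 45 lay below the median of all genes, 4 were at least 2-fold lower and 0 higher, and the median was -0.50 (-0.22 after rescaling). SEC62, a part of the translocation machinery, was at 80.0, 23.7 and 78.0 FPKM (-1.72), SSR4, of the translocon-associated complex, at 776, 313 and 733 FPKM (-1.31), and the retrieval receptor KDELR3 at 18.0, 7.25 and 19.7 FPKM (-1.20). The abundant RPN1, of the oligosaccharyltransferase, stayed within 2-fold at 206, 137 and 246 FPKM.

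The chaperones of the same compartment were nearer to the median of all genes. Of 27 genes of the unfolded protein response, 2 were at least 2-fold lower, 0 were higher, and the median was -0.17, or 0.10 after rescaling. ERO1A, an oxidase for disulfide bonds, was at 28.4, 10.4 and 31.7 FPKM (-1.37), and SDF2L1 at 33.7, 14.2 and 43.9 FPKM (-1.19). The abundant P4HB, a disulfide isomerase, was at 379, 227 and 432 FPKM and the chaperone CALR at 262, 234 and 298 FPKM, both within 2-fold.

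Among genes of prolactin signalling, 3 of 12 were at least 2-fold lower and 1 higher, with a median of -0.63. PRLR, the prolactin receptor, was at 125, 67.9 and 131 FPKM (-0.88), within 2-fold. ELF5, a transcription factor of the alveolar secretory cell, was at 879, 244 and 875 FPKM (-1.85), the largest difference of the list. The STAT5 feedback genes CISH, at 16.0, 4.19 and 9.50 FPKM (-1.71), and SOCS2, at 24.0, 7.64 and 24.99 FPKM (-1.53), were lower too. TNFSF11, the RANK ligand, was the exception at 0.864, 5.26 and 0.506 FPKM (1.75). STAT5A and STAT5B were not analysed here.

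Of 15 steroid receptor and hormone-sensing genes, 5 were at least 2-fold higher and 1 lower, with 8 above 0 and a median of 0.19. Of the 5, 4 were below 5 FPKM in the early library and entered only through the peak-labelled library. TFF3 (NW_005100612.1:5170927-5174626), a small secreted trefoil peptide, was at 1.72, 59.4 and 1.15 FPKM, 22.2-fold higher in the peak-labelled library. AREG, an EGF receptor ligand known as an oestrogen target in the gland, was at 2.62, 24.2 and 0.426 FPKM (2.80), and GREB1, another oestrogen target, at 0.496, 5.62 and 0.527 FPKM (2.14). The progesterone receptor PGR was at 5.66, 15.4 and 9.35 FPKM (1.296), while the oestrogen receptor ESR1, at 17.7, 24.6 and 20.7 FPKM (0.45), stayed within 2-fold. The thyroid hormone receptor THRB was the gene past 2-fold in the other direction, at 23.0, 10.8 and 25.3 FPKM (-1.02), and the glucocorticoid receptor NR3C1 was at 63.5, 42.0 and 59.7 FPKM (-0.59).

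Within the EGF receptor family the only calls were ligands, 1 in each direction. AREG was the 1 gene of 9 at least 2-fold higher and BTC, at 9.81, 3.97 and 10.6 FPKM (-1.12), the 1 lower. Each was below 5 FPKM in 1 of both libraries and entered only through the library where it was higher. The receptors ERBB2 (20.2, 18.1 and 22.4 FPKM) and ERBB3 (36.3, 27.9 and 32.8 FPKM) lay within 2-fold, and the list median was -0.35.

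In the insulin-like growth factor (IGF) axis, 4 of 12 genes were at least 2-fold higher, 1 lower, and the median was 0.15. Both ligands were higher, IGF1 at 12.3, 29.9 and 10.6 FPKM (1.21) and IGF2, whose locus is shared with another entry, at 4.53, 21.0 and 1.74 FPKM (1.995). So were the binding proteins IGFBP3, at 25.5, 58.2 and 13.0 FPKM (1.16), and IGFBP4, at 18.0, 55.1 and 14.2 FPKM (1.56). IRS1, the adaptor of the receptors, was lower at 21.1, 9.99 and 28.5 FPKM (-1.01), and the abundant IGFBP7 was level at 110, 99.2 and 120 FPKM.

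In the TGF-beta pathway 3 of 21 genes were at least 2-fold higher and 0 lower, with a median of 0.63 and 18 of the 21 above the median of all genes. Of the 3, 2 were below 5 FPKM in the early library and entered only through the peak-labelled library. TGFB1 itself was at 1.74, 5.40 and 1.43 FPKM (1.22), the activin subunit INHBB at 4.03, 11.3 and 1.89 FPKM (1.29) and LTBP4, which holds latent TGF-beta in the matrix, at 28.2, 70.4 and 31.1 FPKM (1.29). The co-receptor TGFBR3, at 83.4, 56.04 and 80.2 FPKM (-0.56), was the lowest of the list.

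Genes tied to the start of involution through LIF and STAT3 held no call among 13 genes, with a median of 0.01. The highest ratio of this list was 0.997, just within 2-fold. After rescaling 1 of its genes was past 2-fold higher and its median was 0.27. STAT3 was at 41.3, 40.9 and 38.6 FPKM, and the protease CTSB at 74.2, 85.4 and 56.2 FPKM. Of 28 immediate early genes, 3 were higher and 4 lower, with a median of -0.05 (0.20 after rescaling). JUNB was at 18.6, 43.9 and 8.68 FPKM (1.20) and KLF2 at 6.03, 19.5 and 6.97 FPKM (1.55), against 27.7, 2.79 and 6.74 FPKM (-2.92) for GADD45G and 116, 33.5 and 123 FPKM (-1.76) for the kinase phosphatase DUSP4. Among 15 clock genes 2 were lower (13.3%, against 5.92% of all genes) and 1 higher (6.67%, against 4.66%). Their median was -0.13 (0.13 after rescaling).

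The epithelial identity genes went both ways. Of 24 genes, 5 were at least 2-fold higher and 3 lower, with a median of -0.28 (-0.04 after rescaling). ELF5, the retinal dehydrogenase ALDH1A1 (94.0, 32.9 and 121 FPKM) and PIGR, the receptor that carries antibody across the epithelium (521, 195 and 585 FPKM), were lower. ALDH1A3 (3.23, 16.4 and 2.02 FPKM), PROM1 (2.95, 13.0 and 1.07 FPKM) and the growth factor receptor KIT (3.96, 9.82 and 1.12 FPKM), known from luminal progenitor cells, were higher, but all 3 were below 5 FPKM in the early library and entered only through the peak-labelled library. The epithelial transcription factor ELF3 was higher too, at 8.49, 19.2 and 5.79 FPKM (1.09). KIT also marks mast cells, and 9 of the 11 genes on the mast cell list were not matched, so their part was not tested. The keratin KRT7 was higher, at 76.6, 157 and 48.6 FPKM (1.03), KRT8, at 126, 196 and 154 FPKM (0.63), and KRT18, at 21.0, 32.0 and 19.5 FPKM (0.59), stayed within 2-fold, and the adhesion gene EPCAM was at 77.8, 60.0 and 76.4 FPKM (-0.37).

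Tight junction genes were slightly lower, with 2 of 18 at least 2-fold lower, 0 higher and a median of -0.45. These were CLDN8, at 17.9, 7.82 and 18.1 FPKM (-1.10), and the adaptor CGN, at 24.7, 11.03 and 25.1 FPKM (-1.09), while CLDN4 and CLDN7 stayed within 2-fold. Of 18 basal and myoepithelial genes, 1 was higher (5.56%, against 4.66% of all genes), the integrin subunit ITGB4 (7.30, 16.9 and 7.16 FPKM). In this list 0 were lower, and the median was -0.07 (0.19 after rescaling). TAGLN, a gene of contractile cells, was level at 165, 173 and 176 FPKM.

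Cell death genes gave 2 higher (8%) and 1 lower (4%) of 25, near the 4.66% and 5.92% of all genes, with a median of 0.19. The inhibitor BIRC3 was at 25.3, 53.0 and 18.4 FPKM (1.04) and the BCL2 relative BCL2A1 at 4.06, 9.79 and 1.34 FPKM (1.09). Of 28 lysosome genes 1 was at least 2-fold higher (3.57%) and 0 lower, and the median was 0.04. Of 33 proliferation genes measured, only 11 reached 5 FPKM, the division marker MKI67 was at 0.675, 0.734 and 0.356 FPKM, and the 1 call was CCND1 (5.93, 13.5 and 4.17 FPKM).

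Collagens and other matrix genes did not share a direction. Of 16 collagen genes, 4 were at least 2-fold lower and 0 higher, with a median of -0.23 (0.04 after rescaling). The basement membrane chains COL4A1, at 62.0, 20.2 and 84.2 FPKM (-1.57), and COL4A2, at 43.8, 17.5 and 59.7 FPKM (-1.28), stood lowest, with the fibrillar COL3A1 (255, 123 and 220 FPKM) and COL1A2 (138, 65.8 and 106 FPKM). Of 35 matrix proteases, inhibitors and glycoproteins, 6 were higher and 2 lower, with a median of 0.39. PLAT, the tissue plasminogen activator, was at 11.1, 39.0 and 9.20 FPKM (1.73), TIMP1, an inhibitor of matrix proteases whose locus is shared with another entry, at 11.7, 34.2 and 8.69 FPKM (1.48), and THBS2 at 5.73, 18.7 and 3.31 FPKM (1.55). SPARC, which binds collagen, was lower at 155, 63.6 and 122 FPKM (-1.27), as was POSTN (12.1, 4.31 and 14.4 FPKM).

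Fibroblast genes outside the collagens were higher or level, among them DCN, at 131, 254 and 106 FPKM (0.95), VIM, at 282, 414 and 200 FPKM (0.55), and FBLN1, at 26.0, 62.2 and 18.3 FPKM (1.22). The list of 14 had 1 higher, 2 lower and a median of 0.53. Of 11 fat cell markers measured, 7 reached 5 FPKM, and 5 of the 7 were at least 2-fold lower, with a median of -1.05, or -0.51 over all 11. ADIPOQ, the adipocyte hormone adiponectin, was at 15.1, 4.10 and 5.69 FPKM (-1.66), and LPL of this list is also made by the secretory epithelium. The part of fat cells in the lipid results was not tested. Among 18 endothelial genes, PECAM1 (47.4, 46.9 and 38.1 FPKM) and AQP1 (54.2, 54.5 and 77.8 FPKM) were level, and the median was 0.04, or -0.11 over the 27 measured. The 3 at least 2-fold higher were the vessel ligand ANGPT2 (5.67, 12.5 and 2.89 FPKM) and the lymphatic FLT4 (1.85, 6.01 and 1.66 FPKM) and LYVE1 (3.91, 8.94 and 2.57 FPKM). The last 2 entered only through the peak-labelled library, and ANGPT2 has a locus shared with another entry.

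Genes of lymphocytes were higher in the peak-labelled library, at low levels. Of 31 T cell genes measured, 14 reached 5 FPKM, and 7 of these were at least 2-fold higher and 1 lower, with a median of 0.99, or 0.72 over all 31. Of the 7, 6 entered only through the peak-labelled library. The summed level of all 31 was 88.8, 178 and 38.8 FPKM. CD3D, a chain of the T cell receptor complex, was at 2.68, 10.4 and 1.23 FPKM (1.62), CD247, another chain of it, at 4.99, 14.7 and 3.20 FPKM (1.39) and the costimulatory receptor CD27 at 4.05, 15.5 and 2.18 FPKM (1.71). CD7 went against the list at 8.88, 3.48 and 2.57 FPKM (-1.14), and CD3E was listed at 0 in both libraries.

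Among B and plasma cell genes, 7 of 13 were at least 2-fold higher, 4 of them below 5 FPKM in the early library, and 1 lower, with a median of 1.12. CD79B, of the B cell receptor, was at 1.08, 7.22 and 0.308 FPKM (1.98), POU2AF1, a B cell coactivator, at 4.71, 21.6 and 2.87 FPKM (1.98), the plasma cell factor IRF4 at 10.4, 31.0 and 9.70 FPKM (1.49) and MZB1, which helps antibody assembly, at 14.99, 50.8 and 11.4 FPKM (1.70). JCHAIN, which joins polymeric antibody, was far more abundant and within 2-fold, at 266, 429 and 337 FPKM (0.69). PIGR, the epithelial receptor for this antibody, was the 1 lower gene of the list (-1.41), so that its ratio and those of the 7 higher genes lay in opposite directions.

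Myeloid genes differed less. Of 14 genes, 3 were at least 2-fold higher and 1 lower, with a median of 0.59, or 0.30 over the 27 measured. Of the 3, 2 were below 5 FPKM in the early library and entered only through the peak-labelled library. The lipid carrier APOE was at 56.7, 132 and 34.6 FPKM (1.20), the neutrophil protein S100A9 at 4.84, 13.8 and 1.84 FPKM (1.34), and the signalling adaptor TYROBP at 24.0, 31.5 and 13.0 FPKM (0.38). NCF4, a subunit of the phagocyte oxidase, was lower at 39.7, 14.0 and 39.0 FPKM (-1.43).

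Of 30 interleukin, chemokine and receptor genes, 11 were at least 2-fold higher, 5 of them below 5 FPKM in the early library, and 2 lower, with a median of 0.68. CCL20 was at 0.240, 8.97 and 0 FPKM (3.01), the lymphoid CXCL13 at 2.15, 10.8 and 0.0874 FPKM (1.91) and CCL21, which guides cells into lymph vessels, at 5.97, 19.5 and 2.80 FPKM (1.56). CCL5, made by T cells, was at 10.8, 32.8 and 2.003 FPKM (1.52). The lower genes were the epithelial CCL28, which attracts antibody-secreting cells, at 55.8, 18.5 and 70.0 FPKM (-1.54), and CXCL17 at 12.6, 2.20 and 8.64 FPKM (-2.09).

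Interferon and NF-kappaB response genes had calls only upward. Of 27 interferon-stimulated genes 7 were at least 2-fold higher and 0 lower, with a median of 0.43, and of 32 NF-kappaB genes 5 were higher and 0 lower, with a median of 0.29. Of these higher genes, 3 of the 7 and 3 of the 5 were below 5 FPKM in the early library. They entered only through the peak-labelled library. IRF1 was at 14.2, 39.1 and 6.55 FPKM (1.40) and the chemokine CXCL10, whose locus is shared, at 18.6, 42.3 and 2.70 FPKM (1.14). The adhesion gene ICAM1 was at 5.70, 18.3 and 3.25 FPKM (1.53) and NFKBIE, an inhibitor of NF-kappaB, at 4.58, 16.0 and 4.85 FPKM (1.61). In antigen presentation the immunoproteasome subunits PSMB9, at 15.2, 51.4 and 10.5 FPKM (1.69), and PSMB10, at 14.6, 34.4 and 8.004 FPKM (1.18), were the 2 higher genes of 19, with 0 lower and a median of 0.42. Of 32 subunits of the standard proteasome, none was past 2-fold, with a median of -0.09 (0.19 after rescaling).

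Complement and antimicrobial genes went both ways. Of 15 complement genes 4 were at least 2-fold higher and 3 lower, with a median of 0.86, or 0.27 over the 23 measured. CFI, which inactivates complement, was at 10.2, 45.5 and 1.72 FPKM (2.06), CFB, of the alternative pathway, at 5.49, 18.8 and 1.95 FPKM (1.61), C7 at 6.95, 20.2 and 4.07 FPKM (1.42) and C1R at 23.6, 58.8 and 14.8 FPKM (1.28). C9, of the terminal pore, was at 115, 17.8 and 136 FPKM (-2.62) and the protective CD59 at 46.1, 21.2 and 49.8 FPKM (-1.08). Of 14 antimicrobial and acute phase genes, 3 were higher and 4 lower. PGLYRP1, which binds bacterial walls, was at 63.2, 3.30 and 13.5 FPKM, 14.9-fold lower in the peak-labelled library, and lactoperoxidase, LPO, at 178, 61.4 and 300 FPKM (-1.52). Lactoferrin, LTF, was within 2-fold at 1074, 556 and 75.3 FPKM, and CHI3L1 was higher at 82.7, 175 and 34.9 FPKM (1.08).

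**Figure D4:**
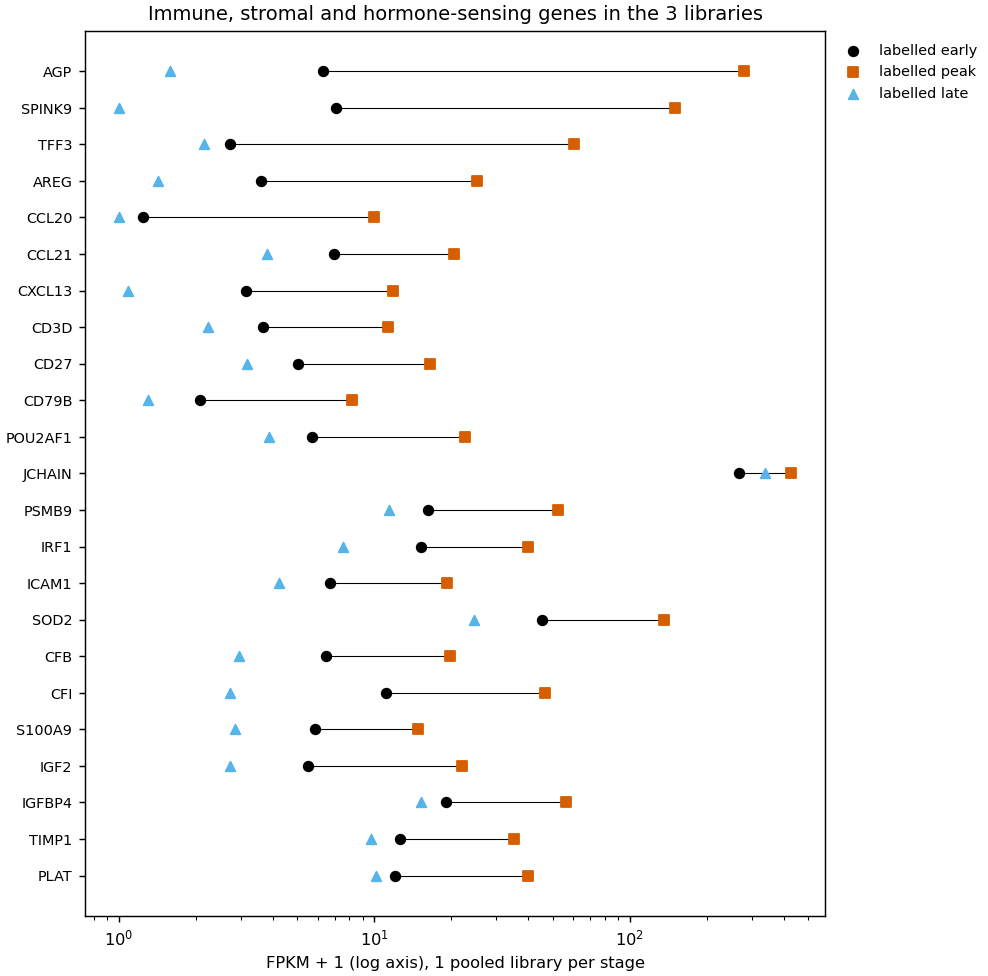
FPKM + 1 (log axis) of 23 immune, stromal and hormone-sensing genes in the pooled libraries labelled early (circle), peak (square) and late (triangle), with a line from early to peak. Every square lies to the right of its circle, and the triangle lies to the left of the circle for all but JCHAIN.

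Among housekeeping functions, ribosomal protein genes were lower by a small and even amount. All 62 cytosolic ribosomal protein genes at 5 FPKM or more had a ratio below 0, with a median of -0.58 and 2 past 2-fold. After rescaling, 60 of the 62 stayed below 0. The 63 measured genes summed to 38993, 26086 and 30324 FPKM. RPS29 was at 2629, 1963 and 2168 FPKM. These genes have many near-identical copies, so the assignment of reads to each is uncertain. Respiratory chain genes matched this, with 55 of 55 below 0 and a median of -0.62, and NDUFA4, at 106, 48.1 and 128 FPKM (-1.12), stood lowest. In the late-labelled library the respiratory chain median was 0.02 and that of the ribosomal proteins -0.35. Over all genes, the peak-labelled median was -0.30 from 30 to 100 FPKM and -0.57 from 300 to 1000 FPKM. Whether either list differed from other genes of its own abundance was not tested.

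The elongation factor EEF2 was at 469, 279 and 387 FPKM (-0.75), and of 20 mTOR and translation control genes 1 was past 2-fold, the kinase EEF2K (62.2, 26.1 and 65.1 FPKM). Glycolysis and citrate cycle genes had a median of -0.25 (0.01 after rescaling) over 36 genes, with 4 lower, among them ACO1 (80.3, 32.2 and 93.8 FPKM), and 1 higher, LDH-A (9.86, 22.9 and 11.8 FPKM). BDH1, a ketone body enzyme, was lower at 72.6, 13.8 and 76.5 FPKM (-2.32). Splicing factors held 0 calls among 43 genes, with a median of -0.08 (0.19 after rescaling). Of 31 antioxidant genes, 4 were lower and 3 higher, and the mitochondrial SOD2, at 44.5, 135 and 23.6 FPKM (1.58), parted from the cytosolic SOD1, at 235, 129 and 255 FPKM (-0.87).

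**Figure D5:**
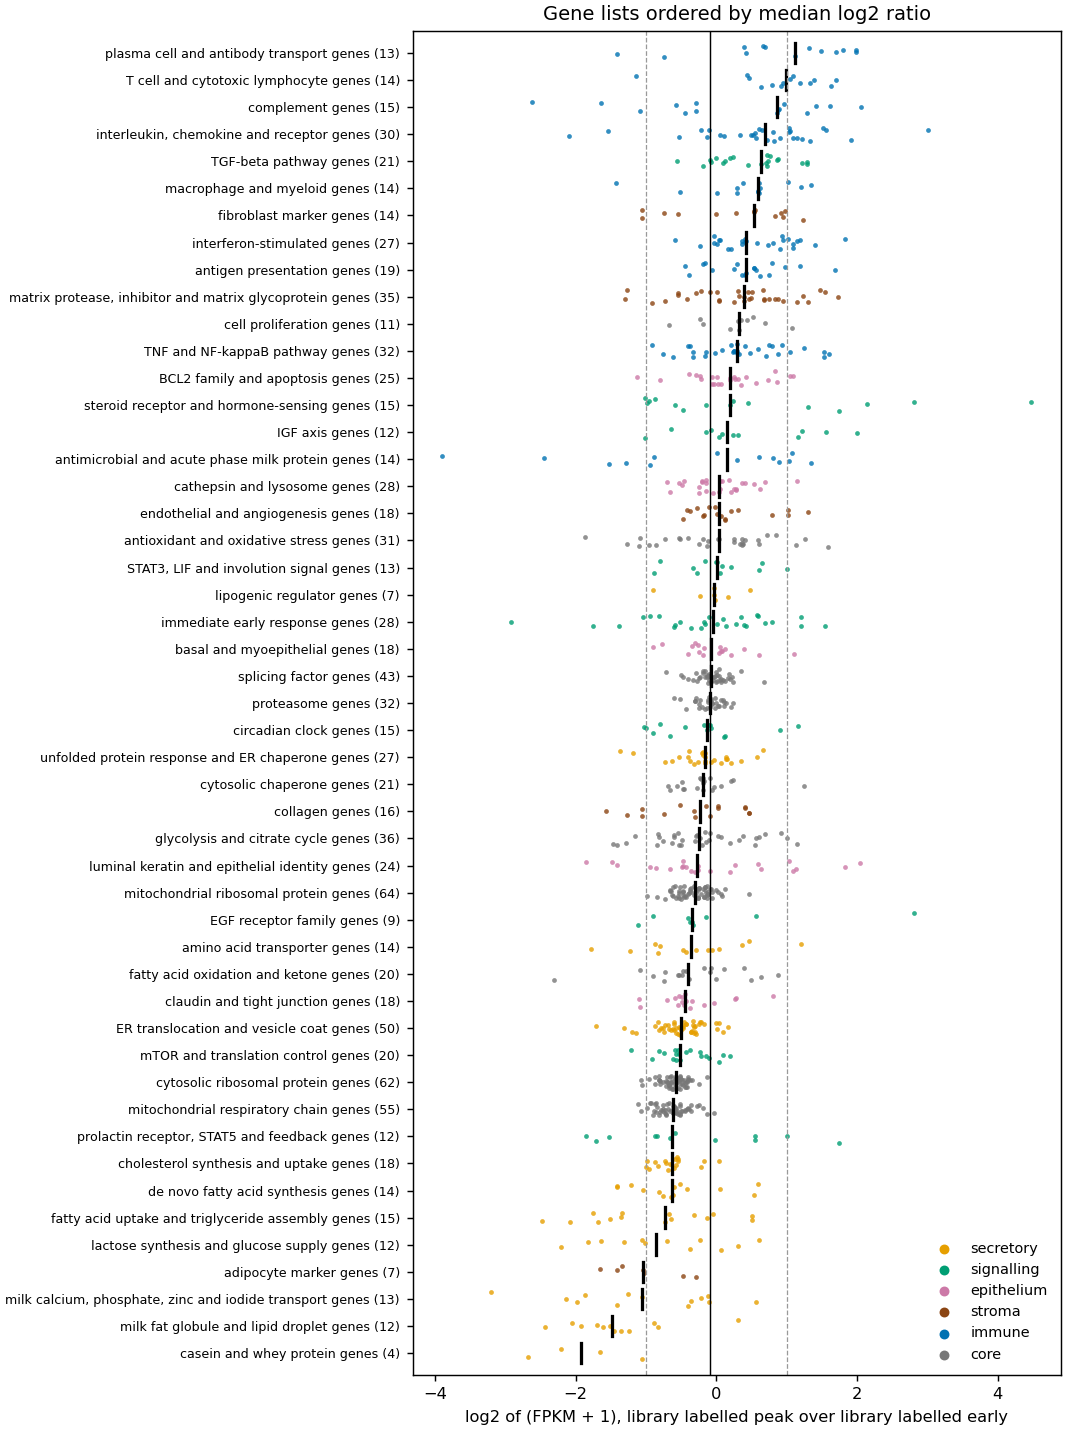
Each point is the log2 ratio of FPKM + 1, peak-labelled over early library, of 1 gene at 5 FPKM or more, in lists with 4 or more such genes (number in parentheses), ordered by the list median (thick bar), and the solid line is the median of all genes, -0.09. Caseins and whey proteins lie at the bottom (-1.93) and lymphocyte lists at the top, up to 1.12. Not all secretory lists lie low, with -0.17 for the unfolded protein response and -0.03 for lipogenic regulators. The adipocyte list, of the stroma, is at -1.05.

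The largest ratios of all belonged partly to genes outside these lists. AGP (NW_005100742.1:15658885-15662302), the symbol given to goat alpha-1-acid glycoprotein, an acute phase protein, was at 5.31, 279 and 0.588 FPKM, 44.4-fold higher in the peak-labelled library. The protease inhibitor SPINK9 was at 6.06, 149 and 0 FPKM (4.41), the retroviral envelope gene ERV3-1 at 0.890, 24.4 and 0.113 FPKM (3.75), the vitamin B12 binder TCN1 at 0.712, 17.5 and 0.667 FPKM (3.43) and PLEKHS1 at 2.34, 28.2 and 0.126 FPKM (3.13). The beta-defensin DEFB126 was at 0.320, 9.53 and 0 FPKM (2.997) and C28H10orf99 at 0.0768, 6.32 and 0 FPKM (2.76). Beside these, CCL20, TFF3 and AREG, 5 genes of the 15 with the highest ratios carry only a LOC number. Of these, LOC106503894 was listed at 0 in the early library and at 37.1 and 32.4 FPKM in the other two.

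At the other end, RGS4, which ends G protein signals, was at 111, 6.598 and 92.4 FPKM, 14.8-fold lower, and C3H2orf82 at 57.8, 6.35 and 53.7 FPKM (-2.999). LOC102186944, the most abundant of the 15 lowest, was at 257, 11.9 and 474 FPKM (-4.32). The chemerin receptor gene GPR1 was at 8.89, 0.438 and 7.15 FPKM (-2.78), TECTB at 9.66, 0.554 and 11.8 FPKM (-2.78), the pigment enzyme TYR at 7.42, 0.240 and 2.63 FPKM (-2.76) and AWAT1, of wax ester synthesis, at 7.34 FPKM in the early library and listed at 0 in both others. HPRT1, a purine salvage enzyme that every cell uses, was at 8.11, 0.0362 and 6.85 FPKM (-3.14). Whether a value near 0 in 1 library is a failed estimate was not tested. The ratios of genes at or near 0 in 1 library were not read as absence.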

How the data were processed

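RNA of 5 goats per stage was mixed in equal parts and 1 stranded library per stage was sequenced. Per the submitters' processing notes, TopHat2 2.0.9, Bowtie2 and Cufflinks 2.1.1 were used, and the authors deposited FPKM values, normalised for transcript length and library size, for 50041 loci. The deposited FPKM table names no assembly, and its loci lie on scaffolds. All per-sample columns were mapped to a sample (0 were left over).

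Of 15161 loci ending in 1 gene ID, classes and symbols came from the RefSeq gene table of ARS1.2, used for names only, which placed 13424 in protein-coding genes. Loci of a gene were summed. The ratio was log2((peak-labelled + 1)/(early + 1)), genes needed 5 FPKM in either library, and 2-fold was the threshold. With 1 library per stage no test was run, and precision could not be estimated. Lists (54, matched by symbol or synonym) are described by counts and medians. Of the 8678 genes, 1020 have a locus that the table also lists for another entry. Beside those marked in the text, they include SLC1A1, KDELR3, PROM1, ANGPT2, ACO1, TAGLN, IGFBP7 and TYR.

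The genes and lists were chosen with earlier results of these data known. Named genes are the 15 highest and 15 lowest ratios, the 10 most abundant, and per list the 2 most abundant and up to 3 highest and 3 lowest past 2-fold. XDH, PLIN2, ACACA, SLC2A1, PGR, ESR1, STAT3, KRT7, KRT8, KRT18, ELF3, EPCAM, MKI67, CD3E, IRF4, MZB1, CCL5 and C1R were added after their values were seen, and a few genes are not reported here. Alternatives changed the pseudocount, filter, scaling, summing, treatment of zeros, fold threshold and library. Python 3.11.15, numpy, pandas and matplotlib were used.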

Additional observations from a re-analysis of the deposited data

How the results depend on the processing

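No paired analysis was possible because only 1 pooled library was made per stage, and for the same reason no library could be left out. At pseudocounts of 0.1 and 5 FPKM the median log2 ratio of all genes was -0.093 and -0.064, and at 5 FPKM 140 genes were higher and 283 lower. With 20 FPKM required, 108 were higher and 309 lower, and the median was -0.31. That of proliferation genes was then -0.24, the ratio of CCND3 alone, against 0.33 over 11 genes at 5 FPKM. Without a filter the median was 0.0073, with a mean of 5 FPKM -0.10, and centred it was 0. Rescaled without the 20 most abundant genes, 742 genes were higher and 302 lower, and the median was 0.17. That of glycolysis and citrate cycle genes was 0.012 and that of nerve genes, only 2 in number, 0.013. At 4-fold 40 were higher and 50 lower, and at 1.5-fold 1037 and 1364. Chosen after seeing the data, 5 FPKM in both libraries gave 164 higher genes and a median of -0.11, and leaving out shared loci a median of -0.084. Of the 138 genes named in the text past 2-fold, 107 stayed so at a pseudocount of 5 FPKM and 118 after rescaling. The cause of these shifts was not tested.

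With the library labelled late in place of that labelled peak, 35 genes were higher and 101 lower than in the early library. The median was 0.0077. Of 110 named genes past 2-fold in the comparison above that had a value here, 8 were past it in the same direction. Genes here needed 5 FPKM in the early or the late-labelled library, so list members differ from those above. Over the members used above, the late-over-early median was -0.97 for T cell, -0.36 for plasma cell and -0.05 for EGF receptor family genes. The EGF receptor family median is above 0 only with the changed members, and the erythroid median is the ratio of GYPC alone. List medians above 0 in place of below were casein and whey protein 0.038, milk fat globule and lipid droplet 0.30, de novo fatty acid synthesis 0.36, fatty acid uptake and triglyceride assembly 0.032, cholesterol synthesis and uptake 0.47, lactose synthesis and glucose supply 0.039, milk calcium, phosphate, zinc and iodide transport 0.024, amino acid transporter 0.094, ER translocation and vesicle coat 0.18, EGF receptor family 0.096, claudin and tight junction 0.14, mitochondrial respiratory chain 0.023 and glycolysis and citrate cycle 0.057. List medians below 0 in place of above were TGF-beta pathway -0.073, matrix protease, inhibitor and matrix glycoprotein -0.25, fibroblast marker -0.26, plasma cell and antibody transport -0.046, T cell and cytotoxic lymphocyte -1.39, macrophage and myeloid -0.70, antigen presentation -0.50, interferon-stimulated -0.35, interleukin, chemokine and receptor -0.39, TNF and NF-kappaB pathway -0.21, complement -0.64, cell proliferation -0.060 and erythroid marker -0.037. Ratios of named genes above 0 in place of below were CSN1S1 0.65, CSN3 0.11, GLYCAM1 0.26, FABP3 0.23, BTN1A1 0.37, XDH 0.46, RAB18 0.26, CD36 0.19, GPAM 0.19, LPIN1 0.079, FABP5 0.045, LPL 0.74, FASN 0.79, ACACA 0.88, ACSS1 0.13, IDH1 0.16, B4GALT1 0.23, UGP2 0.051, SLC2A1 0.13, SLC39A8 0.43, ATP2C2 0.19, SLC1A1 0.56, SLC38A3 0.034, KDELR3 0.12, ERO1A 0.15, SDF2L1 0.37, SOCS2 0.058, THRB 0.14, BTC 0.096, IRS1 0.41, DUSP4 0.082, ALDH1A1 0.36, PIGR 0.17, CLDN8 0.021, CGN 0.023, COL4A1 0.44, COL4A2 0.44, POSTN 0.23, CCL28 0.32, C9 0.24, CD59 0.11, LPO 0.75, NDUFA4 0.27, EEF2K 0.066, ACO1 0.22, BDH1 0.073, LOC102186944 0.88 and TECTB 0.26. Ratios below 0 in place of above were IGF1 -0.19, IGFBP3 -0.92, IGFBP4 -0.33, JUNB -1.01, KRT7 -0.65, ELF3 -0.48, ANGPT2 -0.78, ITGB4 -0.025, BIRC3 -0.44, CCND1 -0.42, PLAT -0.24, TIMP1 -0.39, THBS2 -0.64, FBLN1 -0.48, IRF4 -0.089, MZB1 -0.36, APOE -0.70, CCL21 -0.87, CCL5 -1.98, IRF1 -1.01, CXCL10 -2.41, ICAM1 -0.66, PSMB9 -0.50, PSMB10 -0.79, CFI -2.04, CFB -1.14, C7 -0.65, C1R -0.64, CHI3L1 -1.22, SOD2 -0.89, AGP -1.99 and SPINK9 -2.82.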
